A study of Rattus norvegicus with 23 samples.

Results

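Microglia are the resident macrophages of the brain, and 6 genes that mark them or take part in inflammation were read out in 3D aggregates of rat brain cells: Aif1, Itgam, Cd68, Il1b, Ccl2 and Icam1. They were chosen by Ensembl identifier (ENSRNOG00000000853, ENSRNOG00000019728, ENSRNOG00000037563, ENSRNOG00000004649, ENSRNOG00000007159 and ENSRNOG00000020679, in the same order) and are 6 of the 32494 genes in the count tables. The tables hold identifiers only, and the pairing of these 6 with symbols came with the choice of genes and could not be checked against the tables or the reference used here. In libraries of 16991417 to 26588314 reads in genes, 5 of the 6 genes had between 0 and 12 reads, and Cd68 alone passed the filter on low counts and could be tested.

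The aggregates were made from the brains of Sprague Dawley rats at embryonic day 15 and cultured with agitation for 14 days. Aggregates treated with 120 ng/ml sepiapterin, a pteridine that cells turn into the enzyme cofactor tetrahydrobiopterin, were sampled at 6, 12 and 24 hours (T6, T12 and T24), as were control aggregates given the vehicle phosphate-buffered saline (PBS), and PBS controls were also sampled at 0 hours (T0). Each of these 7 groups had 3 libraries of polyadenylated RNA, and 2 of the T12 controls had a repeat library, 23 libraries in all. By label T6 and T12 were prepared in a first library batch and T24 with the T12 repeats in a second, while T0 is assigned to no batch. The titles and the headers inside the files disagree on which libraries of samples 10 and 11 are the repeats, so values that rest on the T12 controls are given by title and, where it matters, by header. Whether the 3 libraries of a group stem from different cultures is not labelled. A p-value here thus measures spread between libraries, which may be technical.

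In the brain, microglia survey the tissue, take up debris and respond to injury or infection by releasing signals such as interleukin-1 beta and chemokines. Aif1 encodes Iba1, an actin-binding protein used to stain microglia, Itgam encodes the CD11b chain of complement receptor 3, and Cd68 encodes a lysosomal membrane glycoprotein of phagocytes. Il1b encodes interleukin-1 beta, Ccl2 a chemokine that attracts monocytes, and Icam1 an adhesion molecule that leukocytes bind on endothelium and other cells. In inflamed tissue Il1b, Ccl2 and Icam1 are induced through the transcription factor NF-kB. In bulk RNA, fewer cells of a type and less RNA per cell cannot be told apart.

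The stretch before the transcription start is shown for Cd68 and Icam1, because these are the 2 genes with reads in each of the 23 libraries. Both sequences are the 250 bases before the start in RefSeq's annotation of build GRCr8, another build than the Rnor_6.0 of the count tables, matched by symbol and written in the direction of the gene. Capitals mark TATAAA, the letters of a TATA box, and GAGGAA, core letters bound by the myeloid factor PU.1 and its relatives, on either strand. No matches of the 2 motifs overlapped.
Cd68, chr10:54882442-54882691, minus strand: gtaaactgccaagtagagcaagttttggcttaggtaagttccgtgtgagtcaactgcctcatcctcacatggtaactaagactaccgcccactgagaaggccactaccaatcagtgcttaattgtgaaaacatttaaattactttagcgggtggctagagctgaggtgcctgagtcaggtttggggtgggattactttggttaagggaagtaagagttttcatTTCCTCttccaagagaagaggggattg
Icam1, chr8:27829595-27829844, plus strand: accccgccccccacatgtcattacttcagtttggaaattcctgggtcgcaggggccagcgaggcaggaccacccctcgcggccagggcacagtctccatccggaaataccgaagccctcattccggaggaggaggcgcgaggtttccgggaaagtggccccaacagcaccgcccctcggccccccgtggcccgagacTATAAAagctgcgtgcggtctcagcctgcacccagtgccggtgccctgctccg
The Cd68 stretch held 1 match to GAGGAA and none to TATAAA, and the Icam1 stretch held 1 match to TATAAA and none to GAGGAA. RefSeq's table also held Itgam, with 2 matches to GAGGAA and none to TATAAA, and Il1b, with 1 match to TATAAA and none to GAGGAA. Of 33469 stretches of this length, 23.3% held GAGGAA and 12.9% held TATAAA. A match describes letters in the sequence and is not a measured site.

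Among the microglia genes, Aif1 had 0 reads in each of the 23 libraries. With 489359091 reads in genes in all, a count of 0 allows a level of up to 0.00613 CPM (the gene's share of the reads in genes, scaled to a fixed library total), and in single libraries of up to 0.113 CPM in the deepest and 0.177 CPM in the shallowest, counting error only. The same was true of 34.5% of all identifiers, which had no read in any library. Reads that aligned to several places were not counted, and the sources used here do not say how strand and overlapping genes were treated.

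Itgam had 37 reads in all, with 0 to 4 reads in a library and 0 reads in 5 of the 23. Its level over all libraries was 0.0756 CPM, with an exact 95% Poisson interval of 0.0532 to 0.104 CPM that covers counting error only. In sepiapterin aggregates it had 1, 0 and 1 reads at T6, 1, 1 and 0 at T12 and 0, 1 and 3 at T24. In PBS controls it had 3, 2 and 1 reads at T0, 3, 0 and 4 at T6, 0, 1 and 3 at T12 and 4, 4 and 1 at T24. The repeats of the T12 controls had 1 and 2 reads. By title the sepiapterin and PBS libraries overlapped at each of the 3 times. By file header the T12 controls, at 0.0492, 0.0983 and 0.137 CPM, all lay above the T12 sepiapterin libraries, at 0.0420, 0.0406 and 0 CPM (exact two-sided permutation p = 0.1, the smallest that 3 against 3 allows). The lowest of these controls and the highest of these sepiapterin libraries held 1 read each. Only library size thus sets the groups fully apart. The share of all genes separated in this way is not given here.

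Cd68 was detected in each library, with 8 to 33 reads, a median of 19 and 428 reads in all. Its level over the 23 libraries was 0.876 ± 0.238 CPM (SD), after scaling by the trimmed mean of M-values (TMM), edgeR's correction for library composition. The squared deviations of its reads from what depth alone predicts were 1.36 times those that counting error alone gives. This ratio was 1.30 for Itgam, 4.62 for Il1b, 1.56 for Ccl2 and 1.20 for Icam1. With Aif1 at 0 and Itgam at 0 to 4 reads, Cd68 was the only one of the 3 microglia genes with more than 4 reads in any library.

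In sepiapterin aggregates Cd68 stood at 0.845, 0.901 and 0.931 CPM at T6, at 0.882, 0.893 and 0.701 CPM at T12 and at 1.09, 1.02 and 1.19 CPM at T24. In PBS controls it stood at 1.49, 0.541 and 1.12 CPM at T0, at 0.574, 0.701 and 0.998 CPM at T6, at 0.389, 0.715 and 0.962 CPM at T12 by title and at 0.748, 0.724 and 0.806 CPM at T24. By title the T0 and T12 controls were the most scattered groups and the T24 controls the tightest. In order of mean by title, T24 sepiapterin (1.10 ± 0.0877 CPM, n = 3) was followed by T0 controls (1.05 ± 0.478), T12 repeats (0.959 ± 0.175, n = 2), T6 sepiapterin (0.892 ± 0.0439), T12 sepiapterin (0.825 ± 0.108), T24 controls (0.759 ± 0.0423), T6 controls (0.758 ± 0.218) and T12 controls (0.689 ± 0.287). Each neighbouring pair in that order differed by less than the larger SD of the pair. By file header the T12 controls stood at 0.960 ± 0.124 CPM (n = 3), next after the T0 controls, and the T12 repeats at 0.552 ± 0.231 CPM (n = 2), the lowest of the 8 groups.

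**Figure D1:**
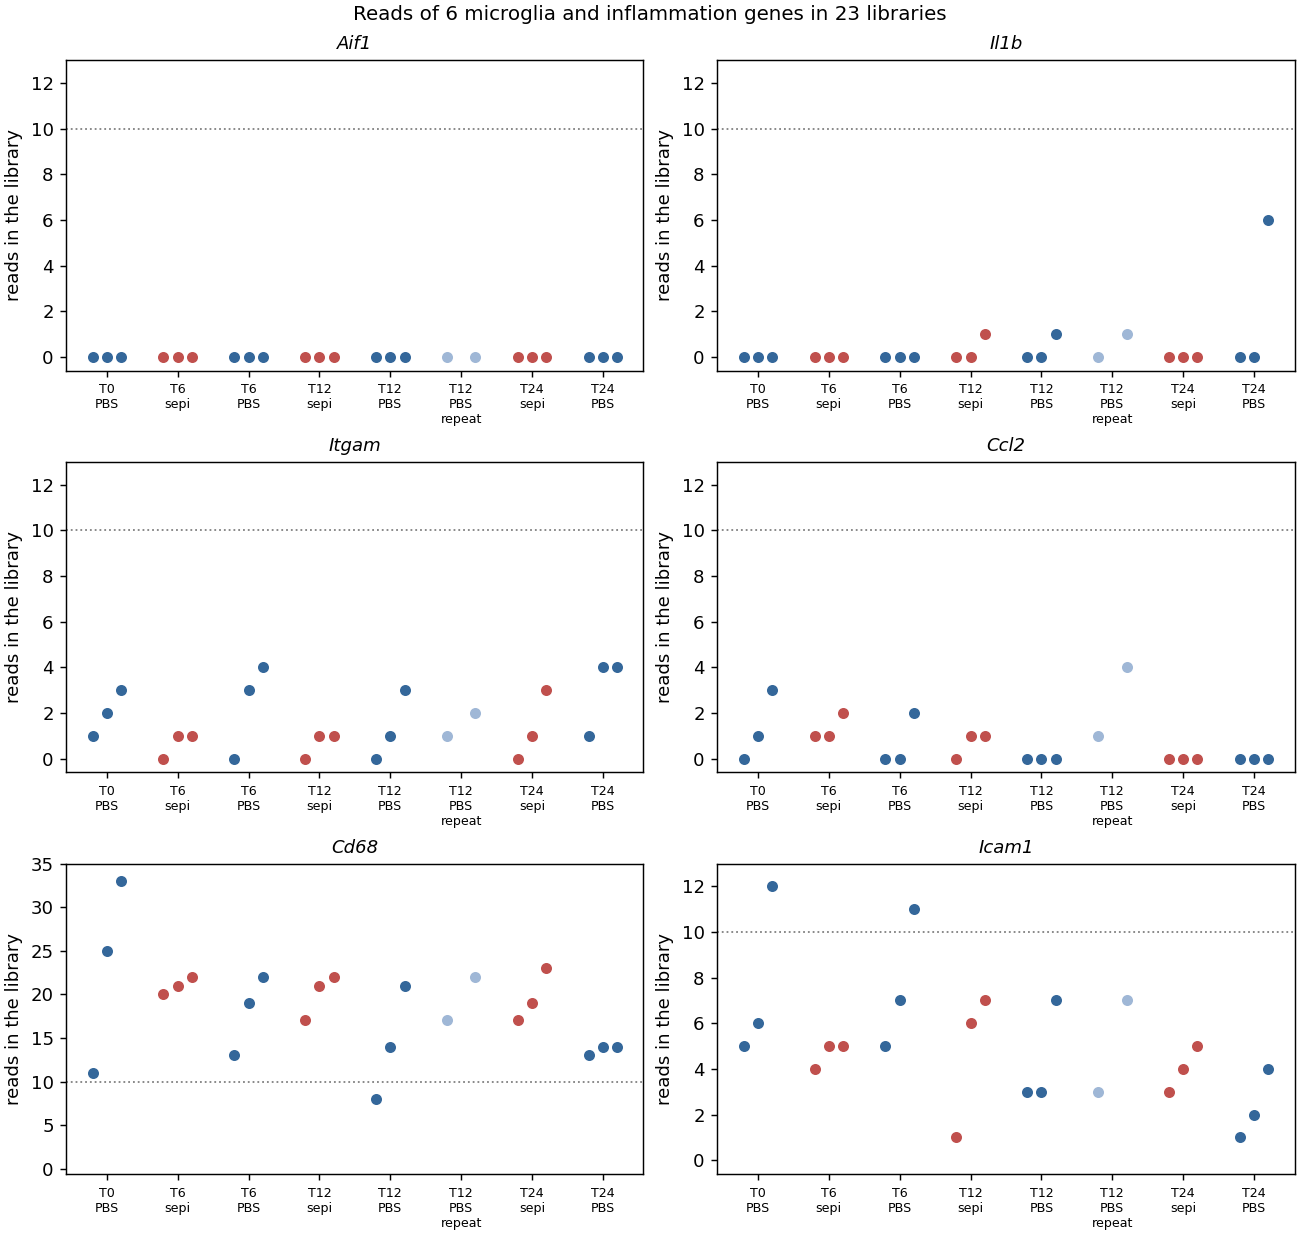
Reads per library (vertical axis) of each gene, with 1 point for each of the 23 libraries, in sepiapterin aggregates (sepi, red), PBS controls (dark blue) and repeats of the T12 controls (light blue). Points within a group are sorted by value, the dotted line marks 10 reads, and the axis of Cd68 differs from the others. Cd68 lies between 8 and 33 reads, Icam1 between 1 and 12, and Aif1 is at 0 throughout.

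Cd68 did not pass the test between sepiapterin and PBS aggregates at any of the 3 times. At T24 the 3 sepiapterin libraries all lay above the 3 controls, with 19, 17 and 23 reads against 14, 13 and 14. Exchanging labels of 3 libraries and 3 gives such a full separation, in either direction, at a rate of 0.1. The share of all genes separated in this way is not given here. The log2 fold change at T24 was 0.54 ± 0.33 (SE), a 1.45-fold difference with a 95% interval of 0.907-fold to 2.32-fold and an adjusted p of 0.38 by edgeR's quasi-likelihood test. At T6 it was 0.24 ± 0.31, with an interval of 0.764-fold to 1.84-fold and an adjusted p of 1.00, and the groups overlapped. The T6 value was 0.090 without T6 control replicate 1 and 0.47 without T6 control replicate 3. At T12 by title it was 0.25 ± 0.32, with an interval of 0.749-fold to 1.89-fold and an adjusted p of 0.74, and the groups overlapped. The share of all 14035 tested genes called at an adjusted p under 0.05 was 0% at T6, 0.0214% at T12 and 4.17% at T24, so a gene without a call is the usual case at each time.

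Averaged over the 3 times by title, Cd68 stood at 0.939 CPM in sepiapterin aggregates and 0.735 CPM in PBS controls, a log2 fold change of 0.34 ± 0.18 (SE). Its 95% interval ran from 0.975-fold to 1.65-fold, its unadjusted p was 0.074 and its adjusted p 0.34 (edgeR), where 1.03% of genes were called. By file header the average was 0.19 ± 0.17 (unadjusted p 0.27, adjusted p 0.63, edgeR). By title limma voom, used here with quality weights on the libraries, gave 0.45 ± 0.17 (unadjusted p 0.013, adjusted p 0.088). The effect did not pass the test for a difference between times. By title it differed by 0.0079 ± 0.44 on the log2 scale between T12 and T6 (adjusted p 1.00, edgeR, 0% of genes called), by 0.29 ± 0.46 between T24 and T12 (adjusted p 0.84, 0.235% called) and by 0.29 ± 0.45 between T24 and T6 (adjusted p 0.87, 0% called). By file header the difference was -0.46 ± 0.39 between T12 and T6 (adjusted p 0.86, edgeR) and 0.75 ± 0.41 between T24 and T12 (adjusted p 0.37), where 143 of 14027 genes were called.

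The value at T12 turned on which libraries are the repeats. Sample 10 gave 22 Cd68 reads in the library titled as the repeat and 8 in the other, and sample 11 gave 17 and 14. Taken by file header, T12 sepiapterin aggregates averaged 0.825 ± 0.108 CPM and T12 controls 0.960 ± 0.124 CPM (n = 3 each), and the log2 fold change was -0.22 ± 0.28 (adjusted p 0.76, edgeR). With both libraries of each sample summed it was 0.040 ± 0.26 (adjusted p 0.96). Without T12 control replicate 1, the library with 8 reads, it was -0.032 ± 0.33 by title, and limma voom gave 0.54 ± 0.30 by title (adjusted p 0.28). At T6 and T24 the header grouping left the log2 fold changes at 0.24 and 0.53.

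**Figure D2:**
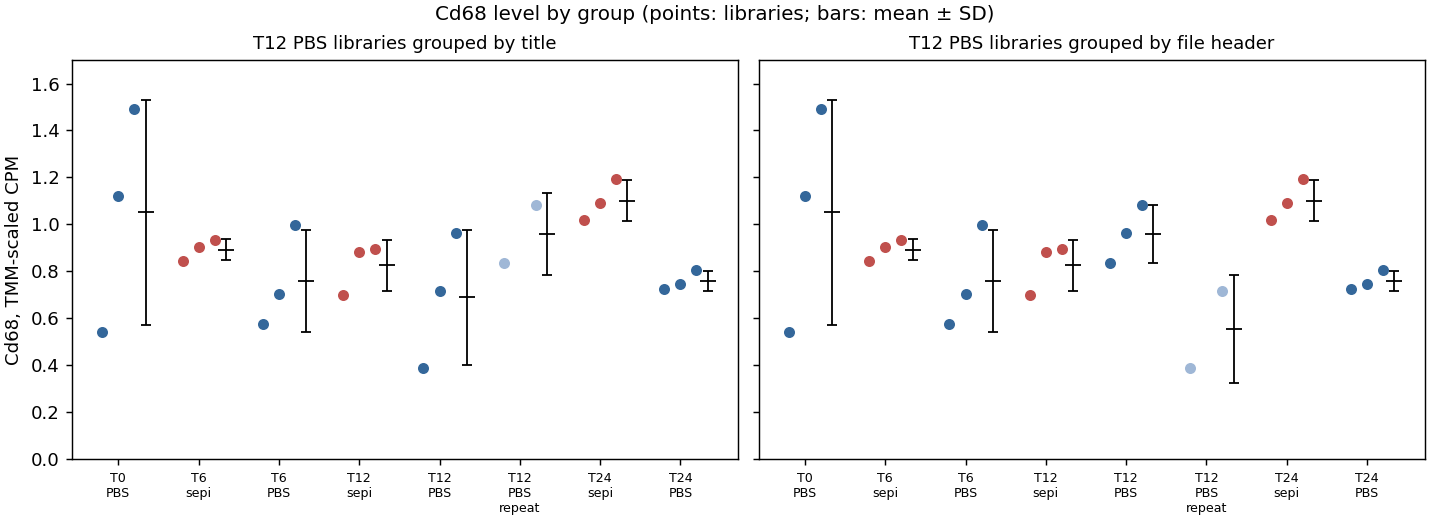
Cd68 level in TMM-scaled CPM (vertical axis) by group, with 1 point for each library sorted by value and bars for the mean ± SD, for T12 controls grouped by title (left) and by file header (right). The 3 T24 sepiapterin libraries, at 1.02 to 1.19 CPM, lie above the T24 controls, at 0.724 to 0.806 CPM, while the T12 controls average 0.689 CPM by title and 0.960 CPM by header. Cd68 was not called at T24 (adjusted p 0.38, edgeR).

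Between times in PBS controls Cd68 did not pass the test either. T6 against T0 gave a log2 fold change of -0.49 ± 0.30 (SE), with a 95% interval of 0.464-fold to 1.10-fold and an adjusted p of 0.27 (edgeR), in a comparison that called 21.6% of all genes. The T0 libraries had 33, 11 and 25 reads, and the value was -0.15 without T0 control replicate 1, the one with 33 reads, and -0.79 without replicate 2, the one with 11 (adjusted p 0.80 and 0.054). Without T6 control replicate 3 it was -0.72 (adjusted p 0.16), and limma voom with quality weights gave -0.041 (adjusted p 0.93). T0 control replicate 1 also stood apart from its group over all but low-count genes. Its squared differences in reads from replicates 2 and 3 were 18.8 and 24.6 times those that counting error alone gives. Between replicates 2 and 3 this ratio was 2.62, and the highest in any other group was 8.86 (T12 sepiapterin replicates 2 and 3). Its part in the Cd68 value was not tested further. The labels place T0 in no batch, so time and library preparation cannot be told apart there. T12 against T6 gave -0.12 ± 0.33 by title (adjusted p 0.87, 4.67% of genes called) and 0.34 ± 0.28 by header (adjusted p 0.60, 167 of 14027 genes called). In sepiapterin aggregates, where no title is in doubt, T12 against T6 gave -0.12 ± 0.30 (adjusted p 0.86, 4.37% called), and -0.012 without T12 sepiapterin replicate 3. T24 against the T12 repeats gave -0.34 ± 0.30 by title (adjusted p 0.55, 5.54% of 13653 genes called) and 0.47 ± 0.37 by header (adjusted p 0.67, 79 of 13622 genes called). By title it was -0.14 without T12 repeat replicate 1 and -0.51 without T12 repeat replicate 2. Over the 11 comparisons edgeR called Cd68 in 0, with 0 at an unadjusted p under 0.05, DESeq2 in 0 and limma voom in 0, with 1 at an unadjusted p under 0.05.

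**Figure D3:**
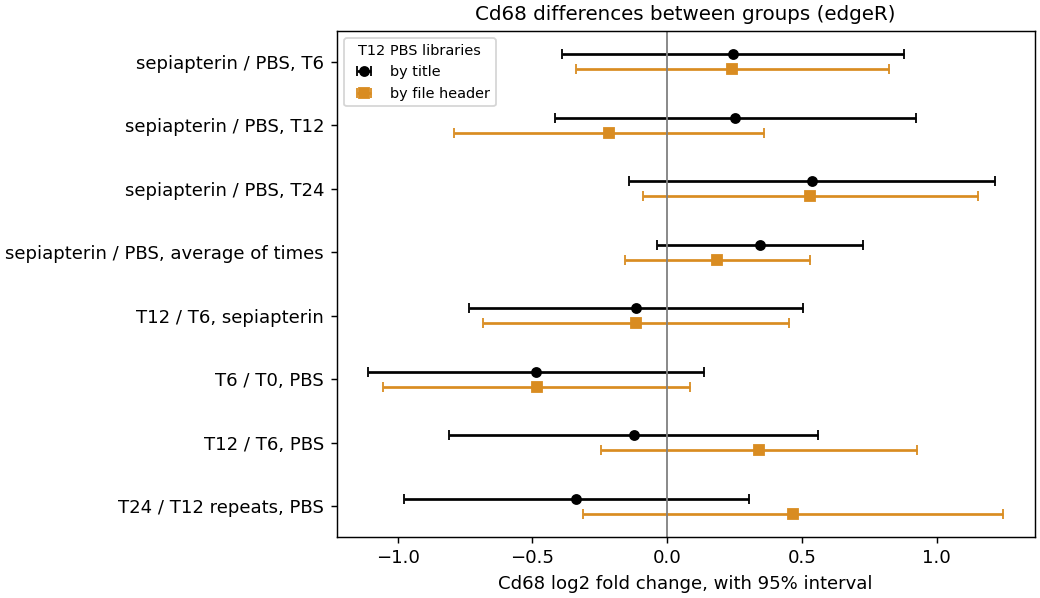
Cd68 log2 fold change (horizontal axis) in 8 comparisons, with 95% intervals from edgeR, for T12 controls grouped by title (circles) and by file header (squares). Each of the intervals includes 0, and the sign of the 3 comparisons that compare T12 PBS libraries with 1 other group depends on the grouping.

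Of the secreted signals, Il1b had 9 reads in all, in 4 of the 23 libraries. T24 control replicate 1 held 6 of them, and T12 sepiapterin replicate 3, T12 control replicate 2 and the repeat of sample 11 held 1 each. At T24 it thus had 0, 0 and 0 reads in sepiapterin aggregates and 6, 0 and 0 in PBS controls. The exact permutation test of mean CPM, two-sided, gave p = 1 there. With all reads in 1 library, each arrangement gives the same absolute difference, so this test could not have shown one. At T0 and T6 Il1b had no read in any library, which allows up to 0.0458 CPM over the 3 T0 controls, 0.0435 CPM over the 3 T6 sepiapterin libraries and 0.0424 CPM over the 3 T6 controls.

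Ccl2 had 17 reads in all, in 10 of the 23 libraries, and at most 4 in any. In sepiapterin aggregates it had 1, 1 and 2 reads at T6, 1, 0 and 1 at T12 and none in the 3 libraries at T24. In PBS controls it had 1, 0 and 3 reads at T0, 0, 2 and 0 at T6, none in the 3 T12 controls by title and none in those of T24. The T12 repeats by title had 1 and 4. By title, Ccl2 reads occurred in 2 of the 8 libraries of the second batch and 6 of the 12 of the first. By file header they occurred in 0 of 8 and 8 of 12, and 0 reads over those 8 libraries allow up to 0.0201 CPM. Apart from the T12 repeats, the second batch holds only T24 libraries, so library preparation and time are largely confounded here. Whether library preparation plays a part was not tested. Time was compared inside the second batch by title, T24 controls against T12 repeats, with edgeR and no filter on low counts. Ccl2 was not called there (log2 difference -4.27 ± 1.83, unadjusted p 0.020, adjusted p 0.16). By file header neither of these groups had a read, so time could not be compared in this way.

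Icam1 had reads in each library, 1 to 12 with a median of 5 and 116 in all. In sepiapterin aggregates it had 5, 4 and 5 reads at T6, 6, 1 and 7 at T12 and 3, 4 and 5 at T24. In PBS controls it had 12, 5 and 6 reads at T0, 7, 11 and 5 at T6, 3, 7 and 3 at T12 and 2, 1 and 4 at T24, and the T12 repeats had 7 and 3. The T0 and T6 controls held the only 2 libraries with 10 or more reads, and the T24 controls the lowest mean. The T0 library with 12 reads (0.542 CPM) was replicate 1, which stood apart from its group over all genes. T0 control replicates 2 and 3 were at 0.246 and 0.269 CPM. By title the means ran from 0.352 ± 0.164 CPM in T0 controls and 0.314 ± 0.0896 CPM in T6 controls, through 0.246 in the T12 repeats, 0.224 in T24 sepiapterin, 0.214 in T12 controls, 0.199 in T6 sepiapterin and 0.194 in T12 sepiapterin, to 0.131 ± 0.0898 CPM in T24 controls. Each neighbouring pair differed by less than the larger SD of the pair.

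At T6 the 3 Icam1 levels with sepiapterin, 0.164 to 0.222 CPM, lay below the 3 controls, at 0.227 to 0.406 CPM (exact two-sided permutation p = 0.1, the smallest that 3 against 3 allows). The highest of these sepiapterin libraries and the lowest of these controls held 5 reads each. Only library size thus sets the groups fully apart. The share of all genes separated in this way is not given here. At T24 the sepiapterin mean was 0.224 CPM and the control mean 0.131 CPM, and the groups overlapped (exact permutation p = 0.2). Over the 9 libraries of each treatment, exchanging labels within each time, the exact permutation p was 0.77.

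The other genes too low for the filter were compared in the same way over 9 libraries against 9. By title Itgam had 8 reads in sepiapterin aggregates and 20 in PBS controls, a mean of 0.0428 CPM against 0.111 CPM, with an exact two-sided permutation p of 0.0498. Its read ratio was 0.384, with an exact 95% interval of 0.146 to 0.910 that covers counting error only. This is the smallest of 14 such p-values over 4 genes and is not adjusted for their number. Those of single times, 3 libraries against 3, cannot fall below 0.1. For the average over the times, edgeR's fit of 21161 genes without a filter gave Itgam an unadjusted p of 0.056 (adjusted p 0.42). Ccl2 had 6 reads in sepiapterin aggregates and 2 in controls by title (exact permutation p = 0.06), but the direction turned when T12 controls were taken by header (p = 0.88). Il1b had 1 and 7 reads, 6 of the 7 in 1 library (exact permutation p = 0.5). With no read at T6 and all T24 reads in 1 library, this test could not have fallen below 0.05. Without the filter, edgeR called the 4 genes in 0 of 44 comparisons, with 2 at an unadjusted p under 0.05 and a smallest adjusted p of 0.16. The 2 were Il1b for sepiapterin at T24 (p 0.031), which rests on 1 control library, and Ccl2 for T24 against the T12 repeats (p 0.020). By file header neither of these Ccl2 groups had a read. Some of the 44 could not have been called, such as Il1b at T6 and Ccl2 at T24, with no read in either group. Others, such as Il1b averaged over the times (SE 3425), had no usable estimate. Over all genes the unfiltered fits called 0 of 21161 for sepiapterin at T6, 557 at T24 and 2635 for T6 against T0. They called 1256 of 19622 for T24 against the T12 repeats.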

How the data were processed

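Each library has its own table of unnormalized read counts, as deposited, over 32494 Ensembl genes, followed by 5 summary lines that were not used in sizes or tests (14.8 to 17.1% of alignments lay outside genes and 23.5 to 25.0% had several places). Cutadapt 1.8, STAR 2.5.2b, HTSeq 0.6.1 and build Rnor_6.0 are named in the submitters' processing notes, which do not state strand setting or annotation release.

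The 6 genes, tests and lists were chosen with earlier results of these data known. The rule on named genes took all 6. Its lists of further genes and cell type markers are made of symbols, and 0 of the 32494 identifiers matched the 47357 genes of the reference table, so none was measured. Genes most like a member were to be named for members averaging at least 1 CPM, which 0 of the 6 did.

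Groups came from the titles. Differences were tested with edgeR 4.0.16 in R 4.3.3 (quasi-likelihood fits with robust spread, TMM scaling, filterByExpr with its minimum count of 10, here 0.457 CPM in at least 3 libraries) in 1 fit of the 7 groups without the repeats (21 libraries, 14 residual degrees of freedom, 14035 genes). T24 was compared with the repeats in a separate fit that included T24 sepiapterin. P-values were adjusted by Benjamini and Hochberg's method across each comparison's tested genes. Genes under the filter were compared by exact permutation of TMM-scaled CPM. DESeq2 1.42.0 and limma 3.58.1 served as alternatives. Each limma voom fit gave the libraries quality weights, so that more deviant libraries count less, and thus differs from edgeR in weighting as well. Scripts were tested on simulated data. No 2 libraries of a group agreed within counting error, and T0 control replicate 1 stood furthest from its group.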

Additional observations from a re-analysis of the deposited data

How the results depend on the processing

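Cd68 passed the test in 0 of 171 alternative fits over its 11 comparisons, with a smallest adjusted p of 0.054, and kept its direction in 155. These refit the same libraries, most with 1 left out, and are not independent. For the average over the times, edgeR's unadjusted p was 0.026 without T12 control replicate 3 and 0.037 without T6 control replicate 3. With only the groups compared it was 0.043 (adjusted p 0.19, 0.28 and 0.22 in this order). Its other edgeR and DESeq2 fits stayed above 0.05. By file header the log2 fold change turned to -0.22 for sepiapterin at T12, to -0.46 for the effect at T12 minus T6, to 0.34 for T12 against T6 in controls and to 0.47 for T24 against the T12 repeats. With the libraries of samples 10 and 11 summed, the effect at T12 minus T6 turned to -0.21 and T12 against T6 in controls to 0.089. With limma voom the effect at T24 minus T12 turned to -0.040. The causes were not tested. Over all genes, edgeR by title called 3 at T12, 585 at T24 and 144 for the average, against 163, 747 and 404 by DESeq2 and 907, 1740 and 1309 by limma voom. Without single libraries sepiapterin at T12 ranged from -0.032 to 0.58 (below 0 without T12 control replicate 1), the effect at T12 minus T6 from -0.27 to 0.34 and at T24 minus T12 from -0.045 to 0.57 (below 0 without T12 control replicate 3), and T12 against T6 in controls from -0.45 to 0.16 (above 0 without T12 control replicate 1 or T6 control replicate 3). The effect at T12 minus T6 turned below 0 without T12 control replicate 1, T6 control replicate 3, T6 sepiapterin replicate 1, T12 sepiapterin replicate 1 or T12 sepiapterin replicate 2. The effect at T24 minus T6 was 0.067 without T6 control replicate 3 and 0.45 without T6 control replicate 1. Sepiapterin at T24 kept its direction throughout, from 0.47 to 0.59.

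For the genes under the filter, by file header the CPM difference of Ccl2 turned to -0.0542 at T12 and to -0.00716 over the 3 times, against 0.0277 and 0.0201 by title. The Itgam difference over the 3 times was -0.0679 CPM by title, -0.0787 CPM by header (exact permutation p = 0.0193) and -0.0676 CPM by library size only (p = 0.0488). No paired analysis was possible because the labels give the groups no shared replicate numbers. Precision was limited by counts of at most 33 reads per library for each of the 6 genes.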
